A study of Mus musculus with 49 samples.

Results

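Acsl1, Acot2, Cpt1a and G0s2 are 4 genes of fatty acid handling, and their expression is described here in blood cells of mice given oleic acid (OA), itself a fatty acid, or physiological serum. They were found on the array as the clones that carry one of these gene names, 5 clones of 7739, or 4 genes of 5770. Acsl1, Acot2 and Cpt1a have 1 clone each and G0s2 has 2, of which the brighter leads. Peripheral blood mononuclear cells (PBMC), as the source and tissue labels give them, came from female wild-type C57Bl/6J mice of 7 weeks. Every mouse was anesthetized with xylazine and ketamine and injected into the tail vein. OA, which injures the lung when given this way, went to 26 mice, with n = 4, 6, 4, 4, 4 and 4 at 1, 1.5, 3, 4, 18 and 24 h. Physiological serum went to 11 mice, with n = 2, 1, 2, 2, 2 and 2 at the same times. No mouse without an injection and none before it was analysed here. Amplified, radioactively labelled material was hybridized to 49 nylon filters of spotted cDNA, and 12 mice had 2 filters, which were averaged.

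Long-chain fatty acids that enter a cell are trapped as acyl-CoA by synthetases such as Acsl1, and thioesterases such as the mitochondrial Acot2 release the free acid again. Cpt1a, on the outer mitochondrial membrane, passes the acyl group to carnitine, which is the controlled step of entry into mitochondrial beta-oxidation. G0s2 binds and inhibits the triglyceride lipase Pnpla2 and so holds back the release of fatty acids from lipid droplets. In liver and fat, fatty acids that bind the nuclear receptors of the PPAR family raise the transcription of many genes of this kind, and all 4 are known as PPAR targets in such tissues. PPAR proteins bind as partners of RXR to repeats of the half-site AGGTCA spaced by 1 base.

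The promoters of the 4 genes are shown because the genes are known targets of the same receptors and lie at different steps of one route. Each is the first start that RefSeq lists for the gene (build GRCm38.p6), from 250 bases before to 50 after the start, and lies at chr8:46470787-46471086 (plus strand) for Acsl1, chr12:83987611-83987910 (plus) for Acot2, chr19:3323051-3323350 (plus) for Cpt1a and chr1:193273139-193273438 (minus) for G0s2. Capitals mark the half-site AGGTCA and the GC box GGGCGG, read on both strands.
Acsl1: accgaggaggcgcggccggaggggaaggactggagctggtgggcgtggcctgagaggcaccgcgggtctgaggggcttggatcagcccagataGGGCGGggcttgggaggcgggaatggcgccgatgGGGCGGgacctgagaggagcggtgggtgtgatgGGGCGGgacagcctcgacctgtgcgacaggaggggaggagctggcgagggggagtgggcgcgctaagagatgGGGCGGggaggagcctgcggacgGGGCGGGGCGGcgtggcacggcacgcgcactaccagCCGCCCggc
Acot2: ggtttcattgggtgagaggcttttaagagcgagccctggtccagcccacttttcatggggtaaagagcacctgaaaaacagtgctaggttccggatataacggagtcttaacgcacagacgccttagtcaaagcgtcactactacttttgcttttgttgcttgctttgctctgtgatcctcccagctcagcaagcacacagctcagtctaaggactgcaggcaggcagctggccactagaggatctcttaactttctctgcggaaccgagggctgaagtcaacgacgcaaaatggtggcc
Cpt1a: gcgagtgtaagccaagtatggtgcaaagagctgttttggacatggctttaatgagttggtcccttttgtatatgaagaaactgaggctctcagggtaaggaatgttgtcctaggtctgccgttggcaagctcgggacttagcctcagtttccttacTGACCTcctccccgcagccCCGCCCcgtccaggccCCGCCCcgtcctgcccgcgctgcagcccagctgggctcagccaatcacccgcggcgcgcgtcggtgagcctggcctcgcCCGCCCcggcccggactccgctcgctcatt
G0s2: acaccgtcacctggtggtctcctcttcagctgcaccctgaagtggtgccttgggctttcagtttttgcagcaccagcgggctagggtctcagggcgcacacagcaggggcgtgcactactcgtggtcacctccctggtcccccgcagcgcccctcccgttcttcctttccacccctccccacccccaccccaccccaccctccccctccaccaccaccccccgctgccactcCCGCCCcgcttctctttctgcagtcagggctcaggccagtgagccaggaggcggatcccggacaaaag
The half-site was present once, on the reverse strand of the Cpt1a window as TGACCT, and 16.3% of all 32851 promoter windows of 300 bases held it. The repeat AGGTCANAGGTCA was in none of these windows and in 0.0396% of all. The GC box occurred 6 times forward and once in reverse in the Acsl1 window, with 2 of the 6 overlapping, 3 times in reverse for Cpt1a, once in reverse for G0s2 and not for Acot2, and 35.7% of all windows held it. A second Acsl1 start, at chr8:46490716-46491015, had neither motif. The GC content was 74% in the Acsl1 window, 51.3% for Acot2, 62.3% for Cpt1a and 66.7% for G0s2.

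The 4 genes differed in how well the array measured them. Here, a clone counts as well above background on an array if its spot is over the empty spots' median there by more than 2.6 robust SDs. Acsl1 passed this on all 49 arrays, with spot intensities of 236 to 944, and was brighter on average than 79.6% of clones. G0s2 passed on 26 arrays with its leading clone (47 to 2527) and on 20 with its second clone (35 to 2439). Acot2 passed on 9 arrays (44 to 271) and Cpt1a on 1 (51 to 206), so that values of these genes lie mostly in the range of the empty spots. Probes of different genes cannot be set against each other, and levels below are compared within a clone only. Between the 2 filters of a mouse, log2 signals differed by a median of 0.13 for Acsl1, 0.19 for Acot2, 0.15 for Cpt1a and 0.31 for G0s2 (12 mice). The SD between mice of a group was 0.38, 0.22, 0.17 and 0.85 in the same order.

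Some facts of the samples bear on every result. Arrays had median clone intensities of 83 to 364, with 41.8% to 57.88% of clone spots well above background. Some leukocyte markers were well above background on all 49 arrays, such as the T cell gene Cd3e, the B cell gene Cd79b and the NK gene Ncr1. So were the granulocyte genes S100a8 and S100a9 and the monocyte and macrophage gene Cybb. Other measured markers of each of these types were so on fewer arrays. The lowest were Cd4 and Tcf7 (T cell) on 1, Fcer2a (B cell) on 11 and Prf1 and Eomes (NK) on 3. Among neutrophil markers Prtn3 was lowest, on 1, and among monocyte and macrophage markers Cd14, Itgam and Vcan, on 0. The hemoglobin clones Hba-a1 and Hbb-b1 were saturated on all 49. The extraction kit was one for mouse blood, and the extraction label names lung where the source and tissue labels name PBMC. Of 8 measured markers of lung epithelium and endothelium, Krt18 and Pecam1 were well above background on all 49 arrays, Epcam on 40, Tek on 28, Eng on 21, Sftpd on 1 and Krt8 and Cdh5 on none. Pecam1 is also known from leukocytes and platelets, and whether the samples held lung RNA was not tested. On the first principal component (36.2% of the variance) 7 mice stood apart from the rest, 4 given OA and 3 given serum, none of them early, 5 at 3 or 4 h and 2 late. The array of OA mouse 3 at 3 h, number 38, has a deposited ratio that matches serum of 1.5 h and not of 3 h, and was kept at 3 h as titled.

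Between late (18 and 24 h) and early (1 and 1.5 h) OA mice, Acsl1 rose and G0s2 and Acot2 fell, while Cpt1a did not pass the test. Acsl1 was 1.76-fold higher late (log2 difference 0.81, SE 0.18, adjusted p = 0.00661). G0s2 was 3.02-fold lower (-1.59, SE 0.39, adjusted p = 0.0119) and Acot2 at least 1.19-fold lower (-0.47, SE 0.11, adjusted p = 0.00939). These are limma tests on 1 value per mouse, with Benjamini-Hochberg adjustment over all 7739 clones and 0.05 as the threshold. Of all clones 8.23% passed, 4.35% higher and 3.88% lower, against 3 of the 4 genes, which were chosen with earlier results of these mice known, so that this count is no independent evidence. In serum mice over the same interval none of the 4 passed, where 0.0258% of clones did. The difference between the change in OA mice and that in serum mice passed for none of the 4 genes (adjusted p = 1 each) and for 0% of clones, with 117 clones at an unadjusted p under 0.05. RNA came from mixed blood cells, in which fewer cells of a type and less RNA per cell cannot be told apart.

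**Figure D1:**
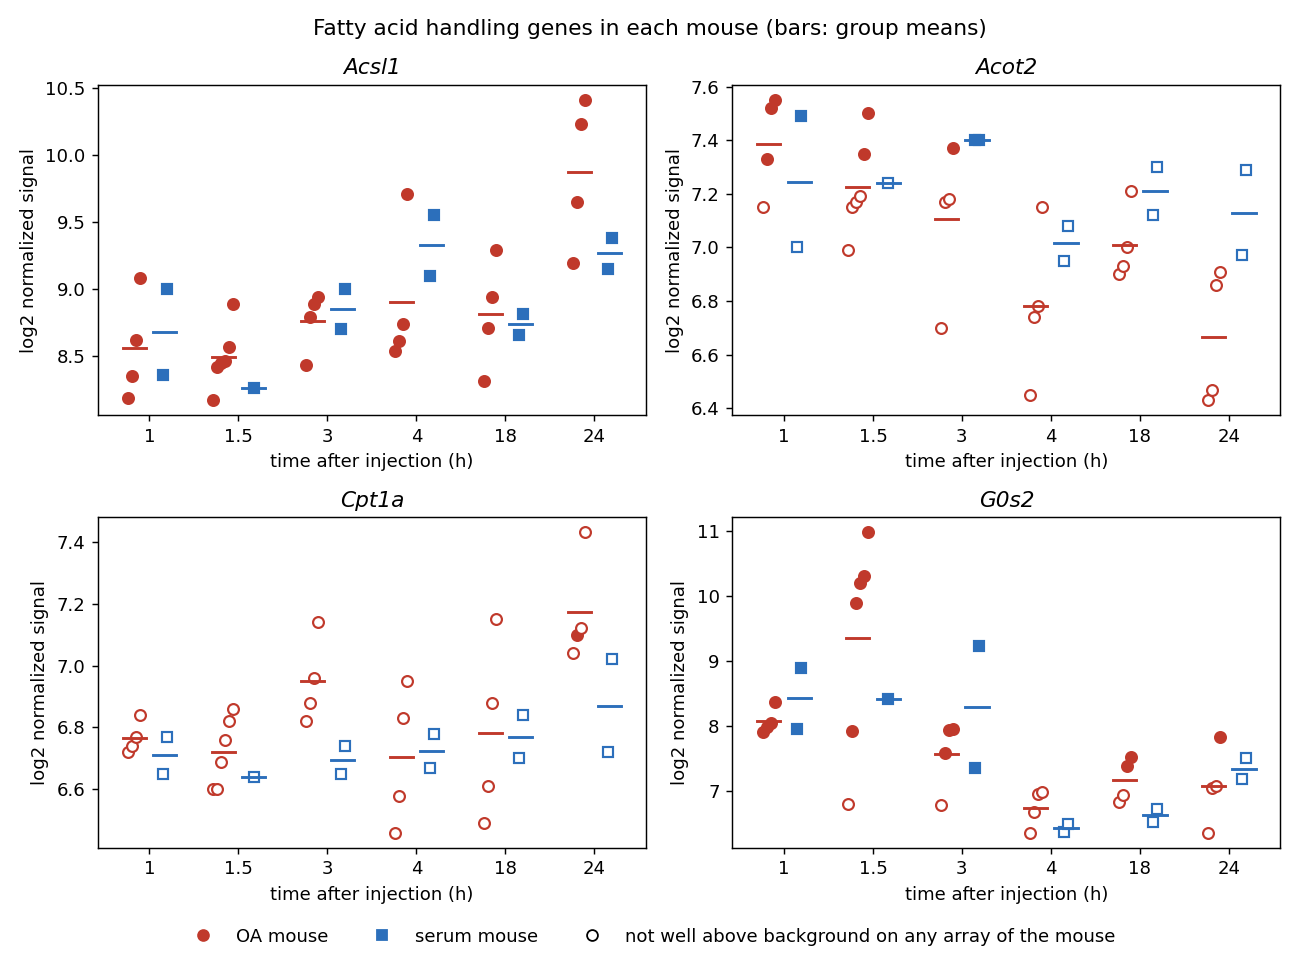
Log2 normalized signal (y axis) of each gene in every mouse against time after injection in h (x axis, not to scale), with OA mice as circles left of serum mice as squares, horizontal bars for group means and open symbols for mice with no array well above background. Acsl1 peaked at 24 h in OA mice with a mean of 9.87, and G0s2 reached 10.98 in 1 OA mouse at 1.5 h and was below 7 in every mouse at 4 h.

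Acsl1, the synthetase that activates long-chain fatty acids, was highest in OA mice at 24 h. At 1 h the OA mice had log2 signals of 8.62, 8.19, 8.35 and 9.08, against 8.36 and 9 in the 2 serum mice, and at 1.5 h the 6 OA mice ran from 8.17 over a median of 8.46 to 8.89, against 8.26 in the serum mouse. At 3 h the OA mice had 8.89, 8.43, 8.79 and 8.94, against 9 and 8.7 in serum mice. Up to this time OA and serum mice lay in one range. At 4 h the OA mice had 8.74, 9.71, 8.61 and 8.54, against 9.1 and 9.55 in serum mice, so that 3 of 4 OA mice were below both serum mice. Both serum mice belong to the 7 mice apart, as do the OA mice at 8.61 and 8.54. At 18 h the OA mice had 9.29, 8.31, 8.94 and 8.71, against 8.66 and 8.81 in serum mice. At 24 h the OA mice had 9.65, 10.23, 10.41 and 9.19, against 9.15 and 9.38 in serum mice. The groups overlapped at both late times, and at 24 h the lowest OA mouse lay between the 2 serum mice and the other 3 above them.

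In order of mean level, Acsl1 was highest in OA mice at 24 h (9.87 ± 0.56, SD, n = 4), next in serum mice at 4 h (9.33) and 24 h (9.27), and lowest in the serum mouse of 1.5 h (8.26) and in OA mice at 1.5 h (8.5 ± 0.23, n = 6). The means between, 8.56 to 8.9, lay within 1 SD between mice of their neighbours in this order. Late OA mice averaged 9.34 ± 0.72 (n = 8) and early ones 8.52 ± 0.29 (n = 10), and 7 of 8 late mice were above the early mean. Late serum mice averaged 9 ± 0.33 (n = 4) and early ones 8.54 ± 0.4 (n = 3), with 4 of 4 late mice above the early mean, a log2 difference of 0.53 (SE 0.29, adjusted p = 0.624). The rise in OA mice exceeded that in serum mice by 0.28 (SE 0.34, 95% interval -0.42 to 0.98). The rise in OA mice rested on 24 h, since without 24 h it was 0.28 (adjusted p = 0.641) and without 18 h it was 1.34 (adjusted p = 0.000506). Without 1.5 h it was 0.78 and did not pass (adjusted p = 0.183).

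Acot2, the mitochondrial thioesterase that reverses acyl-CoA formation, was lowest in OA mice at 24 h. At 1 h the OA mice had 7.52, 7.55, 7.33 and 7.15, against 7 and 7.49 in serum mice, and at 1.5 h they ran from 6.99 over a median of 7.18 to 7.5, against 7.24. Early OA and serum mice thus lay in one range. At 3 h the OA mice had 7.17, 7.37, 6.7 and 7.18, all below the serum mice with 7.4 each, a lack of overlap that 14.7% of clones also showed in one direction or the other. At 4 h the OA mice had 6.78, 6.45, 6.74 and 7.15, against 6.95 and 7.08 in serum mice. At 18 h they had 6.9, 7, 6.93 and 7.21, against 7.12 and 7.3 in serum mice, and the groups overlapped at 4 and 18 h. At 24 h the OA mice had 6.43, 6.91, 6.47 and 6.86, against 7.29 and 6.97 in serum mice, and the groups did not overlap, as was the case for 19.7% of all clones at 24 h. From 3 h on the mean of OA mice was the lower one at each time, and none of these single-time differences passed the test. No array of either treatment was well above background at 4, 18 and 24 h.

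Late OA mice averaged 6.84 ± 0.26 for Acot2 (n = 8) and early ones 7.29 ± 0.19 (n = 10), and 8 of 8 late mice were below the early mean, although the groups overlapped. Since the clone was well above background on 0 of 11 late and 5 of 13 early OA arrays, the fall of at least 1.19-fold is a bound. Late serum mice averaged 7.17 ± 0.16 (n = 4) and early ones 7.24 ± 0.25 (n = 3), with 2 of 4 late mice below the early mean (-0.07, SE 0.18, adjusted p = 0.929). The difference between the 2 changes, OA minus serum, was -0.39 (SE 0.21, 95% interval -0.83 to 0.04, adjusted p = 1). The fall was -0.3 without 24 h (adjusted p = 0.414) and -0.55 with 1.5 h left out (adjusted p = 0.133), and then passed in neither case. The highest group means were those of serum mice at 3 h (7.4) and OA mice at 1 h (7.39 ± 0.19, n = 4), and the lowest those of OA mice at 4 h (6.78 ± 0.28) and 24 h (6.66 ± 0.25). The 6 group means from 7.1 to 7.24 spanned less than the SD between mice.

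Cpt1a, which passes acyl groups to carnitine at the mitochondrial surface, was at the level of empty spots in nearly every mouse, and only 1 array, of an OA mouse at 24 h, was well above background. Early OA mice ran from 6.6 over a median of 6.75 to 6.86, against 6.64 to 6.77 in early serum mice. At 3 h the OA mice had 7.14, 6.96, 6.88 and 6.82, above serum mice with 6.74 and 6.65, as for 14.7% of clones in one direction or the other. At 4 h they had 6.58, 6.95, 6.83 and 6.46, against 6.78 and 6.67 in serum mice. The order at 3 h was thus gone at 4 h, where OA mice lay on both sides of the serum mice. At 18 h the OA mice had 6.49, 6.88, 7.15 and 6.61, against 6.84 and 6.7 in serum mice, again on both sides. At 24 h they had 7.43, 7.1, 7.12 and 7.04, against 7.02 and 6.72 in serum mice, and the groups did not overlap, as for 19.7% of clones at this time.

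Late OA mice averaged 6.98 ± 0.31 for Cpt1a (n = 8) and early ones 6.74 ± 0.09 (n = 10), a log2 difference of 0.23 (SE 0.09, adjusted p = 0.101) with 6 of 8 late mice above the early mean. With 1 of 11 late and 0 of 13 early OA arrays well above background, the fold between these means has only a bound, 1.09-fold higher late. Late serum mice averaged 6.82 ± 0.15 (n = 4) and early ones 6.69 ± 0.07 (n = 3), a difference of 0.14 (SE 0.15, adjusted p = 0.799). The call in OA mice moved with the setting. It passed without 18 h (0.43, adjusted p = 0.00695), with array quality weights (0.28, adjusted p = 0.0178), without the 7 mice apart (0.28, adjusted p = 0.032) and with each array scaled to its median (0.31, adjusted p = 0.0485). The 2 filters of 1 mouse differed by up to 1.12 for this clone, more than any of these changes. The highest mean was that of OA mice at 24 h (7.17 ± 0.18, n = 4), and the other 11 group means lay between 6.64 and 6.95, in an order that mostly stays within the SD between mice.

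G0s2, the inhibitor of triglyceride lipolysis, had the widest range of the 4 genes and was highest in OA mice at 1.5 h. At 1 h the OA mice had 7.98, 8.36, 8.04 and 7.9, against 8.89 and 7.95 in serum mice. Of the 6 OA mice at 1.5 h, 4 lay between 9.89 and 10.98, and the other two at 7.92 and 6.8 (median 10.05), against 8.41 in the serum mouse. The OA mice of 1.5 h thus lay on both sides of the serum mouse, and their SD of 1.62 was the largest of any group for this gene. At 3 h the OA mice had 7.94, 7.95, 6.78 and 7.58, against 7.35 and 9.23 in serum mice, and at 4 h they had 6.67, 6.98, 6.94 and 6.35, against 6.48 and 6.36. At 4 h no array of either treatment was well above background for either clone. Both serum mice of 4 h belong to the 7 mice apart, as do the OA mice of 4 h at 6.94 and 6.35. At 18 h the OA mice had 6.93, 7.38, 6.82 and 7.52, against 6.72 and 6.52 in serum mice, and at 24 h they had 7.04, 6.35, 7.07 and 7.82, against 7.5 and 7.18. At 18 h the groups did not overlap, as for 4.02% of clones, and at 24 h they did.

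Late OA mice averaged 7.12 ± 0.46 for G0s2 (n = 8) and early ones 8.84 ± 1.38 (n = 10), with 8 of 8 late mice below the early mean. The leading clone was well above background on 3 of 11 late and 12 of 13 early OA arrays. Late serum mice averaged 6.98 ± 0.44 (n = 4) and early ones 8.41 ± 0.47 (n = 3), with 4 of 4 late mice below all 3 early ones, as for 11% of clones in serum mice in one direction or the other. The change in serum mice was -1.43 (SE 0.64, 95% interval -2.74 to -0.13) and did not pass (adjusted p = 0.546). With 0 of 5 late and 4 of 4 early serum arrays well above background, the fold between these means has only a bound, 2.39-fold lower late. The SE of the serum change draws on the spread shared by all groups. Without 1.5 h in the fit that change was -1.44 (SE 0.41) and did not pass either (adjusted p = 0.856). The OA and serum changes differed by -0.16 (OA minus serum, SE 0.75), with an unadjusted 95% interval of -1.69 to 1.37. The interval spans differences in both directions, so these mice do not show whether G0s2 fell more in OA or in serum mice. Without 1.5 h the fall in OA mice was -0.95 (adjusted p = 0.182), and without 24 h it was -1.55 (adjusted p = 0.256). In order, OA mice at 1.5 h had the highest mean (9.35 ± 1.62, n = 6), next came serum mice at 1, 1.5 and 3 h (8.42, 8.41 and 8.29) and OA mice at 1 h (8.07 ± 0.21, n = 4), and the lowest were OA mice at 4 h (6.73 ± 0.29), serum mice at 18 h (6.62) and serum mice at 4 h (6.42). Apart from OA mice at 1.5 h, neighbours in this order differed by less than the SD between mice of 0.85. That SD is pooled over groups whose own SDs ran from 0.08 (serum mice at 4 h) to 1.62 (OA mice at 1.5 h). It is therefore wider than the spread of many single groups.

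The second G0s2 clone moved with the leading one. Over 37 mice its signal had r = 0.96 with that of the leading clone, and 0.92 once group means were removed; the clones share the RNA and the filter. It was 3.8-fold lower in late than in early OA mice (-1.92, SE 0.41, adjusted p = 0.00544) and changed by -1.76 in serum mice (SE 0.68, adjusted p = 0.49), at least 2.52-fold. The second clone was well above background on 1 of 11 late and 12 of 13 early OA arrays, so its late level lies mostly in the range of empty spots. It separated the treatments at other times than the leading clone, at 4 h but not at 18 h. At 4 h OA mice had 6.67, 5.99, 6.1 and 6.14, against 5.96 and 5.8 in serum mice, as for 12% of clones, all without an array well above background. Both of these serum mice and the OA mice at 6.1 and 6.14 belong to the 7 mice apart.

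**Figure D2:**
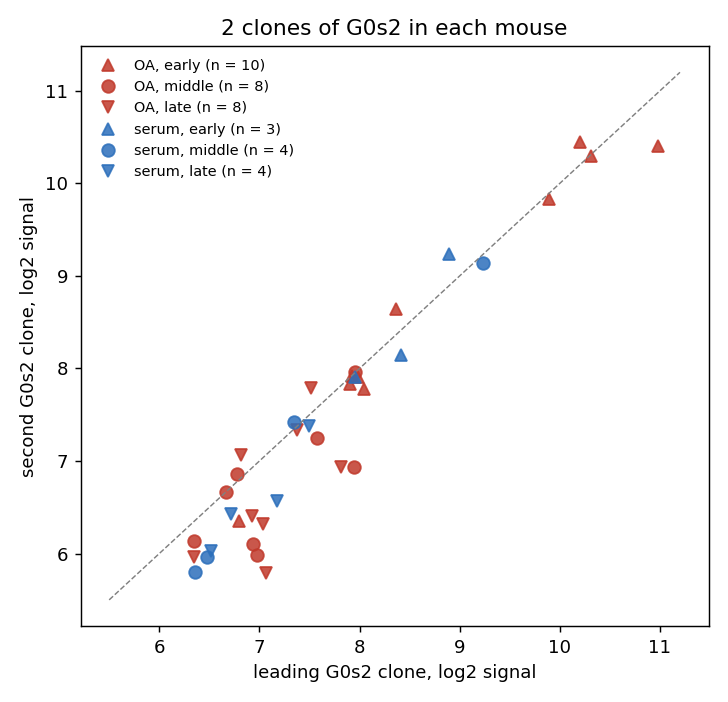
Log2 normalized signal of the second G0s2 clone (y axis) against that of the leading clone (x axis), 1 point per mouse, red for OA and blue for serum, with triangles up for early, circles for middle and triangles down for late mice and a dashed line where both are equal. The 4 OA mice highest on the leading clone, all of 1.5 h, are also the highest on the second clone (9.83 to 10.45).

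**Figure D3:**
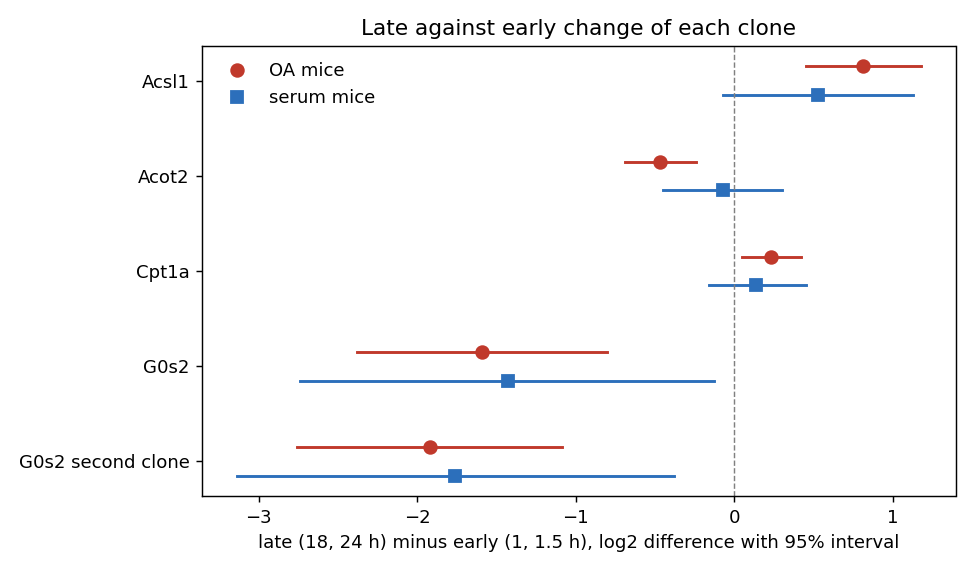
Late minus early log2 difference (x axis) with its 95% interval for each of the 5 clones (y axis), in OA mice (red circles, above) and serum mice (blue squares, below). The intervals of OA mice exclude 0 for all 5 clones, whereas Cpt1a does not pass after adjustment, and for each clone the intervals of both treatments overlap.

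With no order of the times assumed, an F test over the 6 OA groups passed for Acsl1 (F = 7.64, adjusted p = 0.00723), G0s2 (F = 7.13, adjusted p = 0.00883) and Acot2 (F = 5.84, adjusted p = 0.0169), and not for Cpt1a (F = 3.9, adjusted p = 0.0574). Of all clones 12.1% passed. An F test of whether the difference between OA and serum mice changes with time passed for none of the 4 genes (adjusted p = 1 each) and for 0% of clones, with 252 at an unadjusted limma p under 0.05.

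OA against serum at matched times asks what belongs to OA beyond the injection and the time of blood taking. Averaged over the 6 times, none of the 4 genes passed, and 0% of clones did by limma, with 266 at an unadjusted p under 0.05. The log2 differences were 0.05 for Acsl1 (SE 0.14, 95% interval -0.23 to 0.33), -0.18 for Acot2 (SE 0.08, -0.35 to 0), 0.12 for Cpt1a (SE 0.07, -0.03 to 0.26) and 0.07 for G0s2 (SE 0.3, -0.54 to 0.69). Acot2 came nearest to the threshold, with an unadjusted limma p of 0.045 and an adjusted p of 1. The OA mean of Acot2 was below the serum mean at 5 of the 6 times, with a difference of -0.02 (SE 0.25) at 1.5 h. At 4, 18 and 24 h neither group had an array well above background for it.

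**Figure D4:**
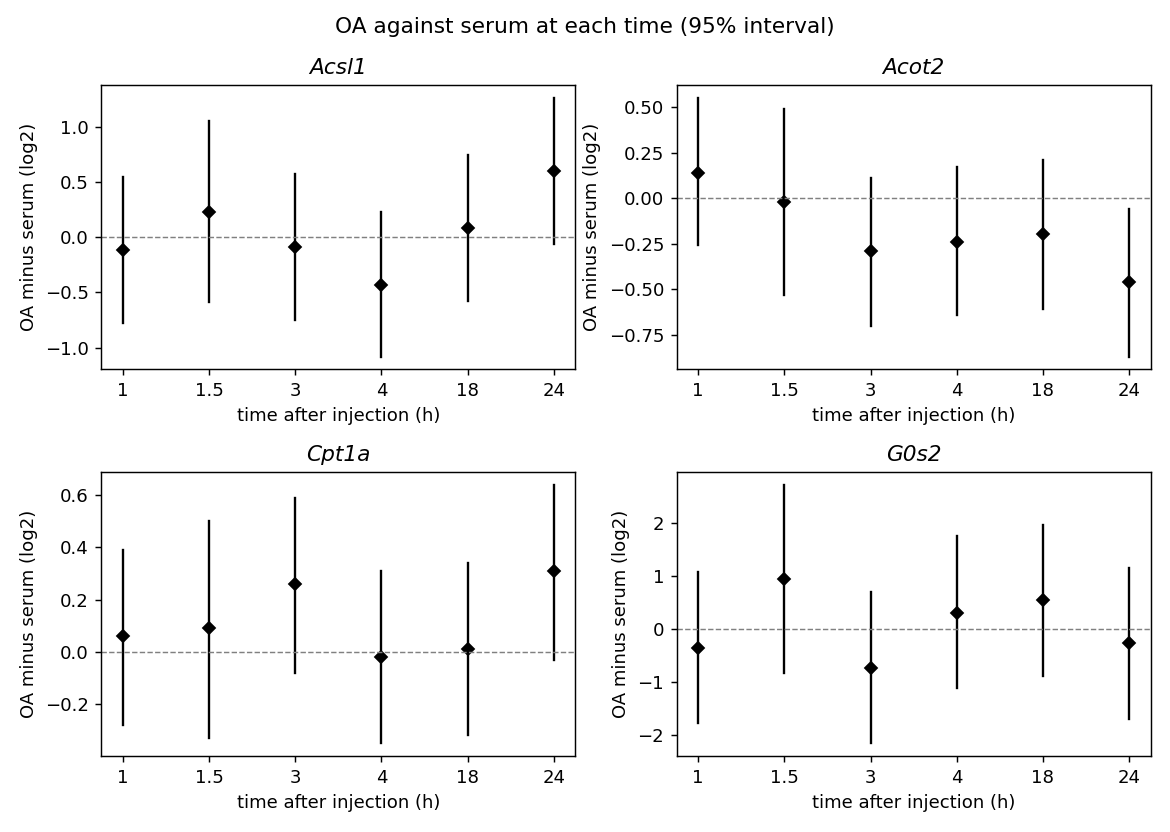
Difference between OA and serum mice (y axis, OA minus serum, log2) with its 95% interval at each time in h (x axis, not to scale), in 1 panel per gene with its own y scale. The largest differences of Acsl1 (0.6), Acot2 (-0.46) and Cpt1a (0.31) are at 24 h, and only the interval of Acot2 at 24 h leaves out 0.

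At single times none of the 4 genes passed either. The share of all clones that passed was 0% at 1, 3 and 18 h, 0.0129% at 1.5 and 24 h and 0.0517% at 4 h. At 24 h, Acsl1 was higher in OA mice by 0.6 (SE 0.32, adjusted p = 0.743), Cpt1a by 0.31 (SE 0.16, adjusted p = 0.743) and Acot2 lower, at -0.46 (SE 0.2, adjusted p = 0.679), while G0s2 differed by -0.27 (SE 0.7, adjusted p = 0.964). Neither group had an array well above background for Acot2 at 24 h, so its sign there rests on signals in the range of empty spots. At 1.5 h G0s2 differed by 0.94 (SE 0.87, 95% interval -0.84 to 2.73), against 1 serum mouse, which is assumed to vary like the mice of other groups. At 4 h Acsl1 differed by -0.43 (SE 0.32, adjusted p = 0.583), the reverse of its sign at 24 h. By stage, none passed early (1 and 1.5 h) or late (18 and 24 h), where 0% of clones did, or in the middle (3 and 4 h), where 0.0129% did. The late Acot2 difference was -0.33 (SE 0.14, 95% interval -0.62 to -0.04, adjusted p = 1).

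Around the 4 genes, 8 lists of fatty acid pathways held 146 genes, of which 76 were measured and 39 had a clone well above background on at least 50% of the arrays. Late against early in OA mice, 2 of the 76 rose, Acsl1 and Plin3, and 5 fell, Acot2, G0s2, Nr1h2, Dgat1 and Dgat2. The median log2 difference of the 76 was 0.04, against -0.01 over all 5770 genes, of which 252 rose and 226 fell. None of the 76 passed late against early in serum mice, OA against serum over 6 times, or the difference between treatments in the late change. The share of the 76 that passed was close to the share over all genes, so nothing is read from the count about the pathway.

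Dgat1 and Dgat2, the enzymes that make triglyceride from diacylglycerol, both fell in OA mice. Dgat2 lay at 6.86 to 7.9 late (median 7.09) and 7.42 to 8.66 early (median 7.99) in OA mice, a difference of -0.72 (SE 0.16, adjusted p = 0.00805), and changed by -0.57 in serum mice (SE 0.27). Dgat1 lay at 7.08 to 8.03 late (median 7.63) and 7.81 to 8.67 early (median 8.15) in OA mice, a difference of -0.64 (SE 0.15, adjusted p = 0.0093), and changed by -0.83 in serum mice (SE 0.25). Their late and early OA ranges overlapped. Dgat2 was well above background on 2 of 11 late and 12 of 13 early OA arrays, and Dgat1 on 5 of 11 and 13 of 13. Plin3, a coat protein of lipid droplets, differed by 0.41 (SE 0.13, adjusted p = 0.049) and was well above background on 1 of 49 arrays. Nr1h2, the nuclear receptor LXR beta, differed by -0.32 (SE 0.1, adjusted p = 0.04) with its brighter clone and by -0.05 (SE 0.16, adjusted p = 0.867) with its other clone. The brighter clone was well above background on 0 of 11 late and 9 of 13 early OA arrays.

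**Figure D5:**
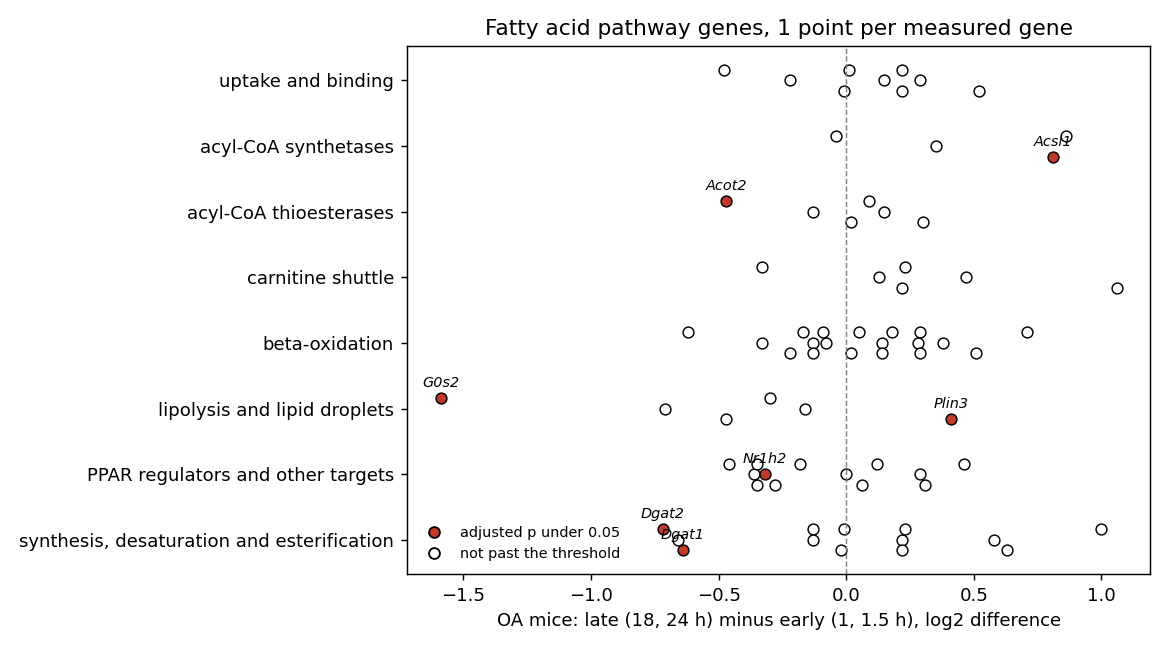
Late minus early log2 difference in OA mice (x axis) for each measured gene of the 8 lists (y axis), 1 point per gene, filled and named where the adjusted p is under 0.05. The 7 named genes lie in 5 of the lists, and none is in uptake and binding, the carnitine shuttle or beta-oxidation.

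By step of the pathway, 0 of 9 genes of uptake and binding passed, 1 of 4 acyl-CoA synthetases (Acsl1), 1 of 6 thioesterases (Acot2), 0 of 6 genes of the carnitine shuttle, 0 of 19 of beta-oxidation, 2 of 6 of lipolysis and lipid droplets (G0s2 lower, Plin3 higher), 1 of 13 PPAR regulators and other targets (Nr1h2) and 2 of 13 of synthesis, desaturation and esterification. The medians ran from -0.39 for lipolysis and lipid droplets to 0.58 for the synthetases. Among genes named after their values were seen, Cpt1b, the isoform of Cpt1a best known from muscle, was well above background on all 49 arrays and differed by 1.06 (SE 0.51, adjusted p = 0.18). Acsl4, another synthetase, differed by 0.86 (SE 0.42, adjusted p = 0.198), and Pnpla2, the lipase that G0s2 inhibits, by -0.47 (SE 0.25, adjusted p = 0.232). The PPAR target Angptl4 was well above background on no array. Fabp2, an intestinal fatty acid binding protein by name, was saturated on 43 of 49 arrays.

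Over 37 mice, Acsl1 had r = -0.6 with Acot2, -0.46 with G0s2 and 0.47 with Cpt1a, and Acot2 had 0.48 with G0s2 and -0.45 with Cpt1a. With the 12 group means removed these were -0.35, -0.23, 0.05, 0.26 and -0.29, each nearer to 0. Cpt1a and G0s2 had r = -0.11, and 0.17 with group means removed. Of 3194 genes with a clone well above background on at least 50% of the arrays, those most like Acsl1 over the mice were Ghitm (r = 0.89), Azin1 (0.88) and Slc35a1 (0.87). Those most like G0s2 were Gadd45b, a stress-induced gene of the Gadd45 family (0.87), the chemokine gene Ccl25 (0.84) and the choline kinase gene Chkb (0.84). Acot2 was most like Clta, a clathrin light chain (0.73), Rab33b (0.72) and Ezr, which encodes ezrin (0.71), and Cpt1a most like Irx3 (0.7), the lysosomal protease gene Ctsb (0.68) and Lmna, which encodes lamins A and C (0.66). In OA mice all 12 changed late against early, with adjusted p from 0.00488 to 0.0265. The same mice and the same arrays gave the likeness and these changes, so these values are a description.

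Some markers of blood cell types also changed over the same interval. Of all clones, 4.35% rose and 3.88% fell late against early in OA mice, and 0.0258% passed in serum mice. The marker lists are short, and nothing is read from their counts. Of 11 measured neutrophil markers, 4 fell late against early in OA mice (Ltf, Il1r2, Clec4d and Slpi), and the median over the 11 was -0.9. The log2 of the summed signals of the 11 ran from 11.84 to 14.71 late (median 12.36) and from 12.88 to 15.53 early (median 14.06). Bright genes weigh most in such a sum, here S100a8 and S100a9 (mean log2 signals 11.78 and 12.02), and neither passed (adjusted p = 0.0653 and 0.111). In serum mice 1 of the 11 fell, and the sum ran from 11.73 to 15.01 late (median 13.61) and from 13.82 to 14.18 early (median 14.17). Of 16 erythroid markers, 5 rose in OA mice (Alas2, Car1, Trim10, Rhd and Mpp1), with a summed level of 15.8 to 16.61 late (median 16.3) and 15.55 to 16.26 early (median 15.78), in a list with 2 saturated clones. Of these 5, Alas2 was well above background on 49 arrays, Trim10 on 45 and Mpp1 on 40, but Rhd on 4 and Car1 on 1. In serum mice 1 of the 16 rose, and the erythroid sum had a median of 16.29 late and 15.78 early. Over 37 mice the erythroid sum had r = 0.73 with Acsl1 and 0.58 with Cpt1a (0.58 and 0.29 without group means), and the neutrophil sum had 0.44 with G0s2, 0.5 with Acot2, -0.46 with Acsl1 and -0.42 with Cpt1a (0.23, 0.18, 0 and -0.08). The monocyte and macrophage sum had the opposite signs, with r = -0.55 for G0s2, -0.51 for Acot2 and 0.45 for Acsl1 (-0.19, -0.38 and 0.33). The T cell sum had 0.54 with Acot2 and -0.46 with Acsl1 (0.58 and -0.46), and the platelet sum -0.62 with G0s2 (-0.53). The other relations of the 8 marker lists with the 4 genes lay between -0.36 and 0.31, before group means were removed. Once they were removed, these relations lay between -0.45 and 0.29. The lung epithelium and endothelium sum then had -0.45 with Acot2 and -0.44 with G0s2. Of other lists, 1 of 11 monocyte and macrophage markers rose (Ctsb), 2 of 15 T cell markers rose and 1 fell, 1 of 10 B cell, 1 of 6 platelet and 1 of 8 lung markers fell, and 0 of 6 NK markers changed. The part of these cell markers in the changes of the 4 genes was not tested.

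Without the 7 mice apart, the late change in OA mice was 0.73 for Acsl1 (adjusted p = 0.011), -0.45 for Acot2 (adjusted p = 0.00747) and -1.55 for G0s2 (adjusted p = 0.0204). Leaving out any 1 of the 37 mice kept all 3 past the threshold, with 0.72 to 0.92 for Acsl1, -0.51 to -0.43 for Acot2 and -1.85 to -1.43 for G0s2. These 3 calls thus did not rest on 1 mouse, whereas each was lost when 1.5 h or 24 h was left out, as given with each gene. Not every loss came with a much smaller difference. Without 1.5 h Acsl1 still differed by 0.78 and Acot2 by -0.55, and without 24 h G0s2 by -1.55. Of all clones 637 passed with every time in the fit, 1 without 1.5 h and 8 without 24 h.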

How the data were processed

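Clones were chosen by gene name in the files' annotation, and the 4 genes, the gene lists and the tests were chosen with earlier results of these data known. The authors deposited a linear intensity for each spot, from 15 up to a ceiling of 21815 common to the arrays, and no background column. The column with the signal is unnamed in the file headers and was found from its values. How images were quantified is not given in the sources used here. A log2 table deposited by the authors, quantile normalized over the 49 arrays per the file headers, served as an alternative. Beyond these mice, the series text lists a serum mouse at 1.5 h and an OA mouse at 3 h; neither was analysed here.

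Here, the intensities of 7771 clone spots were log2 transformed, quantile normalized in limma 3.58.1 (R 4.3.3), averaged per clone (7739) and then per mouse (37). Each mouse had 1 value in a fit of 12 group means with lmFit and eBayes, and 1 estimate of the spread shared by all groups. The p-values were adjusted over all clones. Where no array of a group was well above background, the fold is given as a lower bound, taken against a floor per array, the lowest signal well above background or the clone's own signal if that was higher. Such a bound concerns the group means only and holds no sampling error. Symbols were updated through a RefSeq gene table for 1039 clones and kept as in the files for 270. The brightest clone stands for a gene. Named are the clones of the 4 genes, the pathway genes past the threshold and the 3 genes most like each of the 4; others are marked as chosen later. Nothing in the labels says more of the replicates than that each mouse is 1 animal, and groups hold 1 to 6 mice. On simulated data with 200 of 7739 clones changed, late against early in OA mice, 86.5% of 2-fold and 99.5% of 4-fold changes were recovered, and 94.4% and 99.9% for differences between OA and serum averaged over 6 times. These shares are over all changed clones. Single times and the difference between the OA and serum changes were not simulated. The SE of G0s2 over 6 times was 0.3, against a median SE of 0.122 over all clones. The number of arrays limits the precision. Mouse numbers recur between groups. Over 67 pairs of the same number in different groups, deviations from the group means correlated with a median r of -0.006, and 14 pairs were above 0.1, so the numbers were not taken to pair mice.

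The alternatives were median scaling, the deposited table, normexp with an offset of 50, a filter on dim clones, the mouse as a random block over arrays, 1 array per mouse, the mouse number as a block, array weights, leaving out each mouse, each time or array 38, the other G0s2 clone and, added after seeing the data, leaving out 7 mice.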

Additional observations from a re-analysis of the deposited data

Results flagged for a closer look

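In the second clone of G0s2, OA mouse 5 at 1 h had a log2 signal of 8.64, apart from the other 3 OA mice of that time at 7.78 to 7.91, by a gap of 0.854 of the whole range. The leading clone of G0s2 was also highest in that mouse, at 8.36, with the others between 7.9 and 8.04, where the gap was not large enough to be listed. The gap was sought in 30 groups, 5 clones at 6 times in OA mice, and 1 was found, and chance alone is set to give about 1 in 20.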

How the results depend on the processing

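For the 4 genes, 52 differences were recomputed 2516 times under the alternatives, and 2506 values kept their side of the threshold. None reversed a call, and 59 values of differences that had not passed changed sign. Of 49 differences that had not passed, 1 passed under any alternative, the late against early difference of Cpt1a in OA mice. Whether the late against early differences in OA mice passed depended on the times included. Without 1.5 h they were 0.78 for Acsl1, -0.55 for Acot2 and -0.95 for G0s2, and without 24 h 0.28, -0.3 and -1.55, none past the threshold in either case, with fewer mice in the fit. That of Cpt1a passed with median scaling (0.31), array weights (0.28), without 18 h (0.43) and without the 7 mice apart (0.28), and had no value under the filter on dim clones, which removes it. The adjusted p of the F test over times rose above 0.05 without 24 h for Acsl1 (0.625) and Acot2 (0.116), and without 1.5 h for Acot2 (0.0662) and G0s2 (0.0947). For Cpt1a it fell under 0.05 with median scaling (0.0312), 1 array per mouse (0.0128), array weights (0.00978) and without 18 h (0.021). Leaving out single mice, it ran from 0.00634 to 0.0514 for Acot2, highest without OA mouse 2 at 24 h, and from 0.0284 to 0.189 for Cpt1a. The cause of these shifts was not tested.

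Clones called late against early in OA mice numbered 637, and 956 with the mouse as a random block, 1789 with array weights, 1298 without 18 h, 1363 without the 7 mice apart, 1 without 1.5 h and 8 without 24 h. Leaving out single mice gave 256 to 912, with 256 and 330 without OA mice 5 and 6 at 1 h, 371 without OA mouse 5 at 18 h, and 340 and 358 without OA mice 2 and 6 at 24 h. OA against serum over the 6 times gave 0 to 2 clones when single mice were left out, and the difference of the changes 0 to 1. With the replicate block the late against early differences in OA mice were 0.84 for Acsl1, -0.48 for Acot2, 0.25 for Cpt1a and -1.49 for G0s2, and OA against serum over the 6 times was 0.33 for Acsl1 (SE 0.35), -0.07 for Acot2 (SE 0.22), 0.08 for Cpt1a (SE 0.19) and -0.51 for G0s2 (SE 0.73), with the sign of G0s2 turned. The block changed no call of the 4 genes. Most mouse numbers occur under 1 treatment only, so with the block OA against serum rests on the few numbers that both treatments share. Without the block its SE was 0.14 for Acsl1 and 0.3 for G0s2. For OA against serum the block is therefore a weak check, and nothing is read from the turned sign. Without the 7 mice no serum mouse is left at 4 h, and the average runs over the other times. Signal over background limits Acot2 and Cpt1a most, with 9 and 1 of 49 arrays well above background.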
